A study of Mus musculus with 4 samples.

Results

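Of the 36161 gene rows that remained after rows identical in every barcode had been reduced to 1, 76 were histone genes: 69 replication-linked genes, whose symbols begin with Hist1h, Hist2h, Hist3h or Hist4h, and 7 replacement genes, H1fx, H1f0, H2afx, H2afz, H2afv, H3f3a and H3f3b. They were taken by symbol and not by a cut on measured values, but the list was chosen with earlier results of these data known. No histone row was identical to another, and 1 of the 76, Hist1h4m, had no count in any library. The data were single-cell RNA counts from the cortex of C57BL/6 mice at stage E16.5 of embryonic development, dissociated with papain and prepared with a 3′ droplet kit. Cells came from 2 mice with the genotype COP1 KO and 2 with the genotype HET, with 1 library per mouse. COP1 is a ubiquitin ligase listed in the files under the symbol Rfwd2. The titles call the knockout samples CKO but name no driver of the deletion, the labels do not define HET further, and they do not say whether the animals were littermates.

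Histones H2A, H2B, H3 and H4 form the core of the nucleosome, and H1 binds the DNA between nucleosomes. Replication-dependent histone genes lie in clusters, have no introns in their main transcript, and are transcribed mainly in S phase; their messages typically end just after a stem-loop bound by the stem-loop binding protein and carry no poly(A) tail. Replacement histones are made through the whole cell cycle, and after it has ended, from polyadenylated messages. A library primed from poly(A) therefore records a clustered histone RNA where it has a tail or an internal run of A, so its counts are not the total of that gene's RNA.

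The 3′ stem-loop sets these 2 kinds of message apart, so it is shown first for the genes on which the results turn. Each line gives up to 26 bases of the transcript's strand around the stem-loop, 5′ to 3′, from GENCODE transcripts on GRCm38; capitals mark the match to the searched motif GGNNCTTNTNAGNNCC.
Hist1h2ap, chr13:21833026-21833049, minus strand: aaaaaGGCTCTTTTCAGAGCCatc
Hist2h2aa1, chr3:96246027-96246052, plus strand: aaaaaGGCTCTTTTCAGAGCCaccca
Hist1h2ae, chr13:23570663-23570688, minus strand: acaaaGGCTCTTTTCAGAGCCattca
Hist1h4i, chr13:22040961-22040986, minus strand: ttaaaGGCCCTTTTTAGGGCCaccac
Hist1h1c, chr13:23739507-23739532, plus strand: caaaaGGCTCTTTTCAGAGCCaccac
Hist3h2ba, chr11:58949344-58949369, plus strand: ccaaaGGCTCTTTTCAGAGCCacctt
Hist3h2a, chr11:58955167-58955192, plus strand: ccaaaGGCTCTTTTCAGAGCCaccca
H2afx, chr9:44335235-44335260, plus strand: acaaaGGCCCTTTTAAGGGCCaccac

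The stem-loops of Hist1h2ap, Hist2h2aa1, Hist1h2ae, Hist1h1c, Hist3h2ba and Hist3h2a shared the same capital letters, and those of Hist1h4i and H2afx differed from them within the stem and loop. The motif was searched on the transcript strand, in the longest annotated transcript of each histone gene and in any annotated transcript of other genes. It stood in 45 of 67 replication-linked genes (67.2%) with an annotation and in 1 of 7 replacement genes (14.3%), which was H2afx. Among other protein-coding genes it stood in 89 of 21803 (0.408%). Some histone genes without it had short annotated transcripts, such as Hist1h2bl and Hist1h2bn at 381 bases, so the annotation limits the search. What followed the stem-loop differed widely. The longest annotated transcript of Hist1h2ap ran on for 3 bases and that of Hist2h2aa1 for 35, against 151 for Hist1h2ae, 169 for Hist3h2ba, 330 for Hist1h4i, 822 for H2afx, 840 for Hist1h1c and 1643 for Hist3h2a. H2afx is known to give both a stem-loop message and a longer polyadenylated one. The 23 replication-linked genes with more than 100 annotated bases after the stem-loop held 106909 counts in the kept cells (median 118 per gene), and the 22 with at most 100 held 4091 (median 69). Without the Hist3 genes the first group held 9014 counts over 21 genes, with a median of 105, so most of the gap lay in Hist3h2ba and Hist3h2a.

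**Figure D1:**
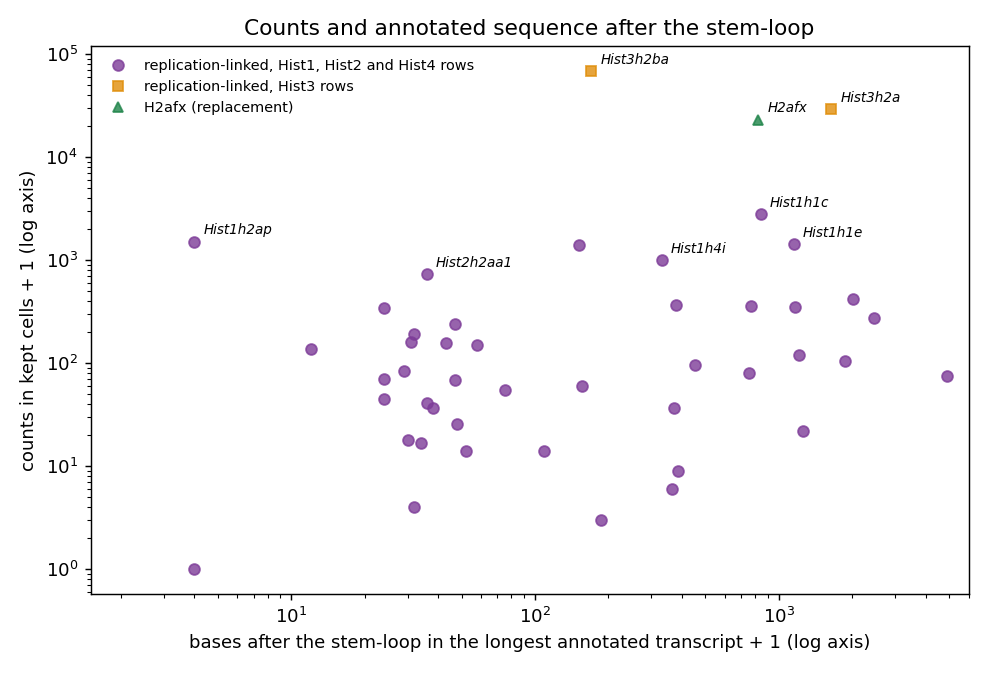
Counts in the kept cells, plus 1, against the annotated bases after the stem-loop, plus 1, both on log axes, for each histone gene with the motif; circles are Hist1, Hist2 and Hist4 genes, squares Hist3 genes and the triangle H2afx. Hist3h2ba (68691 counts), Hist3h2a (29204) and H2afx (23081) stand far above the others, while Hist1h2ap reached 1512 counts with 3 annotated bases after its stem-loop.

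The promoters also differed in letters. The 250 bases before the RefSeq start (GRCm38.p6) are given for 2 clustered H2A genes, 1 Hist3 gene and 1 replacement gene, since their levels took different courses below; capitals mark matches on either strand to the CCAAT box, to the TATA box in the form TATAAA, to the octamer ATTTGCAT, or to the AP-1 site in the form TGANTCA, and none of the matches shown overlaps another.
Hist1h2ap, chr13:21833476-21833725, minus strand: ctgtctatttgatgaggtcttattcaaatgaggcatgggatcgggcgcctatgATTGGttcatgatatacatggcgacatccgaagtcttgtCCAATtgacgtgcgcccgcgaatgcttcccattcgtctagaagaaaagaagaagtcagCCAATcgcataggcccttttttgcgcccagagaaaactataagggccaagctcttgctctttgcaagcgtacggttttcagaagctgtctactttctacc
Hist2h2aa1, chr3:96245247-96245496, plus strand: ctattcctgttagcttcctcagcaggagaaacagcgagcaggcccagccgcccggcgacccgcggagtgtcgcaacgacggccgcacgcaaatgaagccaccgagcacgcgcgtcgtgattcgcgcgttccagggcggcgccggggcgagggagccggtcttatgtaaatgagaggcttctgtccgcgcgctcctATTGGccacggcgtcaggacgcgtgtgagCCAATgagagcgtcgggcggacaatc
Hist3h2ba, chr11:58948661-58948910, plus strand: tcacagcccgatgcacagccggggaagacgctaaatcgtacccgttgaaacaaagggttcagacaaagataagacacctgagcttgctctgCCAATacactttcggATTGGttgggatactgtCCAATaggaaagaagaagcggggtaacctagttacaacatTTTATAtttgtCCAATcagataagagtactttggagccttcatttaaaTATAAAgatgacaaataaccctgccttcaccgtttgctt
H3f3b, chr11:116024505-116024754, minus strand: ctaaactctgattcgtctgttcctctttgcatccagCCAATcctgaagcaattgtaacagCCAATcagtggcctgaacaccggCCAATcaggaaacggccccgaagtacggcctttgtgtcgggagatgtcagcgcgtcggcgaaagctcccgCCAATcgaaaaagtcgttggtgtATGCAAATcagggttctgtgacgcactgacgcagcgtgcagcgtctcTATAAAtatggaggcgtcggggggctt

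Hist1h2ap had 3 CCAAT matches and Hist2h2aa1 2, neither with TATAAA. Hist3h2ba had 4 CCAAT and 2 TATAAA matches, and H3f3b 4 CCAAT, 1 TATAAA and 1 octamer. Across the promoters that matched, CCAAT stood in 52 of 63 replication-linked windows (82.5%) and 4 of 6 replacement windows (66.7%), against 33.8% of all 32851 promoter windows. TATAAA stood in 29 of 63 (46.0%) and 1 of 6 (16.7%), against 12.4%. The octamer stood in 14 of 63 (22.2%) and 1 of 6, against 1.60%, and the AP-1 letters in 3 of 63 (4.76%) and 0 of 6, against 6.75%. These are matches of letters only.

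Several members share their sequence with other genes, which limits how far reads can be given to one of them. Of the 50-base windows of Hist1h2ap (chr13:21833026-21833507, 482 bases), 6.90% occurred in no other annotated gene and 93.1% also occurred in Hist1h2ao. For Hist2h2aa1 (chr3:96245497-96246082) 10.6% were unique, and 89.4% also occurred in Gm20634. Gm20634 is a processed transcript that shares 529 bases of the Hist2h2aa1 span on the same strand, not a separate H2A copy. Hist3h2a (chr11:58954685-58956830) had 68.5% unique windows and lies wholly within the span of Trim17 on the same strand. Hist3h2ba (chr11:58948920-58949533) had 77.9%, sharing 22.1% with the pseudogene Hist3h2bb-ps, and H2afz (chr3:137864487-137866922), Hist1h4i (chr13:22040636-22041362), H3f3a (chr1:180800832-180813943), H3f3b (chr11:116021912-116027962) and H2afx (chr9:44334694-44336077) had 66.8%, 71.1%, 85.1%, 91.6% and 93.9%. H2afv (chr11:6427229-6444443), H1fx (chr6:87980421-87981637), H1f0 (chr15:79028450-79030504) and Hist1h1b (chr13:21779883-21780625) were unique throughout. An annotated gene overlapped 29 of the members, 8 on the same strand and 26 on the opposite one, and whether counting used the strand is not given in the sources used here. Single-gene values of Hist1h2ap are therefore uncertain between near-identical copies. Those of Hist2h2aa1 are uncertain between it, the overlapping Gm20634 and other H2A genes that share windows. Sums over the Hist1 and Hist2 H2A genes are given beside them, but these sums do not hold Gm20634.

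The deposited totals were 28049007 and 28988265 counts in the COP1 KO libraries, against 28327090 and 28071382 in the HET libraries. Of 19237 barcodes, 181 stood in more than 1 library. After filters and doublet removal 18783 cells remained, 5195 and 4729 from COP1 KO mice and 4545 and 4314 from HET mice, with a median of 4505 and 5134 counts per cell, against 5171 and 5476. Cells were clustered without the histone rows and classes named from marker genes as "-like"; 5 of 29 clusters, with 2969 cells, stayed unnamed. Rfwd2 was at 30.6 and 29.7 counts per 1000000 counts of the library or state (CPM) in COP1 KO libraries, against 32.0 and 39.2 CPM in HET libraries (log2 fold change −0.22, SE 0.112, edgeR adjusted p = 0.531); 3′ counts would still register a transcript that has lost only an upstream exon. No source gives the deleted exons, so this level does not check the labels.

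Cycling was read from lists of 39 S-phase and 51 G2/M genes that hold no histone. A cell was called S-list-high or G2/M-list-high above the 99th percentile of excitatory-neuron-like cells (15.4 and 53.0 list counts per 10000). This gave 1894 S-list-high and 1080 G2/M-list-high cells, 1173 progenitor-like cells below both cut-offs, and 11505 postmitotic-neuron-like cells. These classes are ranges of a score: 327 S-list-high, 196 G2/M-list-high, 175 progenitor-like and 1235 neuron-like cells lay within 25% of a cut-off. Of the S-list-high cells, 579 were classed as radial-glia-like, 143 as oligodendrocyte-precursor-like, 566 as ganglionic-eminence-progenitor-like and 263 as intermediate-progenitor-like; most of the rest were in neuron-like classes (95 cortical-interneuron-like, 87 excitatory-neuron-like, 63 striatal-projection-neuron-like) or unnamed (93). Levels are CPM of the summed counts of a state in 1 library, given as mean ± SD over the 4 libraries. The states come from the same 4 libraries, so state contrasts were fitted with edgeR on these sums with the library as a block.

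The most abundant histone RNA in these 3′ data was a replacement gene. H3f3b, 1 of the 2 genes that encode H3.3, had 315830 counts in the kept cells, followed by the clustered gene Hist3h2ba with 68691 and by H2afv (59793), H1f0 (41311), H1fx (41064), Hist3h2a (29204) and H2afx (23081). H2afz had 9983, and no Hist1, Hist2 or Hist4 gene exceeded Hist1h2bc with 2858. These are counts of 3′ ends of captured RNA. H3f3a, the other H3.3 gene, had 2771.

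Replication-linked genes outside the Hist3 cluster were far higher in cells in cycle. Their sum was 606 ± 51.5 CPM in S-list-high cells and 548 ± 61.3 CPM in G2/M-list-high cells, against 103 ± 7.37 CPM in postmitotic-neuron-like cells, with 167 ± 11.8 CPM in progenitor-like cells below both cut-offs (SD, n = 4 libraries). Between S-list-high cells and neurons, 73.6% of 14202 genes tested passed the 0.05 threshold, 36.2% higher and 37.4% lower, so a call alone says little. Of the 36 of 66 such histone genes that had enough counts to be tested, 26 were higher and 3 lower, with a median log2 fold change of 3.13 beside −0.02 for all genes. The filter on low counts lets in genes that are high in either state, so these 36 do not stand for all 66. Between G2/M-list-high cells and neurons, where 69.5% of 14012 genes were called (34.6% higher, 34.9% lower), 28 of 35 were higher and 1 lower, with a median of 3.23 beside −0.02.

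Linker histone genes differed widely among themselves between cycling cells and neurons. Hist1h1b, which encodes H1.5, was at 86.7, 70.7, 75.2 and 53.8 CPM in the S-list-high cells of the 4 libraries (COP1 KO 1 and 2, then HET 1 and 2), against 0.376, 0.120, 0.232 and 0.0615 CPM in neurons, which rested on 6, 2, 4 and 1 counts. No library overlapped between the states, and the log2 fold change was 8.29 (SE 0.185, edgeR adjusted p = 3.70e-15). Hist1h1e, which encodes H1.4, averaged 59.1 ± 1.16 CPM in S-list-high cells, 50.5 ± 5.64 in G2/M-list-high cells and 17.6 ± 5.62 in other progenitors, against 3.67 ± 0.361 in neurons (log2 3.87 for S-list-high over neurons, SE 0.114). Hist1h1c, which encodes H1.2, showed no such step. It averaged 27.4 ± 5.95 CPM in S-list-high cells, 33.6 ± 3.13 in G2/M-list-high cells and 33.1 ± 7.13 in other progenitors, against 24.7 ± 2.16 in neurons, and S-list-high cells and neurons were not separated (log2 −0.00, adjusted p = 0.986).

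Among core histone genes outside Hist3 that are replication-linked, H2A genes had the highest levels in S-list-high cells. Hist1h2ap averaged 83.2 ± 30.8 CPM in S-list-high cells and 59.0 ± 25.8 in G2/M-list-high cells, against 2.21 ± 1.15 in neurons (log2 5.11 for S-list-high over neurons, SE 0.129). The wide SD came from a difference between genotypes that is taken up below. Hist2h2aa1 averaged 39.0 ± 14.7 CPM in S-list-high cells and 26.7 ± 10.7 in G2/M-list-high cells, against 1.99 ± 0.521 in neurons (log2 4.13, SE 0.158). Hist1h2ae averaged 57.5 ± 11 CPM and 43.8 ± 3.98 CPM in the same states, against 5.55 ± 1.18 in neurons (log2 3.24). Hist1h2ao, Hist1h2ab and Hist1h2ag were higher in S-list-high cells by log2 5.52, 5.27 and 5.19. All of these encode H2A proteins that package newly replicated DNA.

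H4 and H2B genes were less uniform. Hist1h4i averaged 38.1 ± 26.6 CPM in S-list-high cells, against 3.84 ± 1.35 in neurons (log2 3.08, SE 0.212), with 1 library, COP1 KO 1, at 5.57 CPM in S-list-high cells while COP1 KO 2, HET 1 and HET 2 were at 40.0, 70.6 and 36.1. Hist1h4d was steadier, at 12.3 ± 0.886 CPM against 1.21 CPM (log2 3.19). The H2B gene Hist1h2bc peaked in another state: it averaged 28.4 ± 10.2 CPM in S-list-high cells, 59.2 ± 6.14 in G2/M-list-high cells and 39.3 ± 5.33 in other progenitors, against 22.3 ± 4.26 in neurons. S-list-high cells and neurons were not separated (log2 0.20, adjusted p = 0.188), while G2/M-list-high cells were higher than neurons by log2 1.37. Hist2h2be, another H2B gene, was higher in S-list-high cells than in neurons by log2 1.45. Named because the count was small, the 3 genes that were lower in S-list-high cells were Hist2h3c2 (log2 −3.13, SE 0.453), Hist2h3c1 (−1.32) and Hist1h2bl (−0.82). In that order, 36.5%, 0.0% and 17.2% of their 50-base windows were unique. Hist2h3c1 also lies wholly within the span of Gm20634 on the same strand. Reads given to these genes may therefore belong to others. Both Hist2h3c genes encode H3. Their levels were low, at 0.495 CPM and 1.57 CPM in S-list-high cells against 4.02 CPM and 3.60 CPM in neurons. The H3 genes with the highest levels in S-list-high cells, Hist1h3a at 2.08 ± 1.21 CPM and Hist1h3c at 1.82 ± 1.07 CPM, had only 36 and 54 counts in all kept cells.

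**Figure D2:**
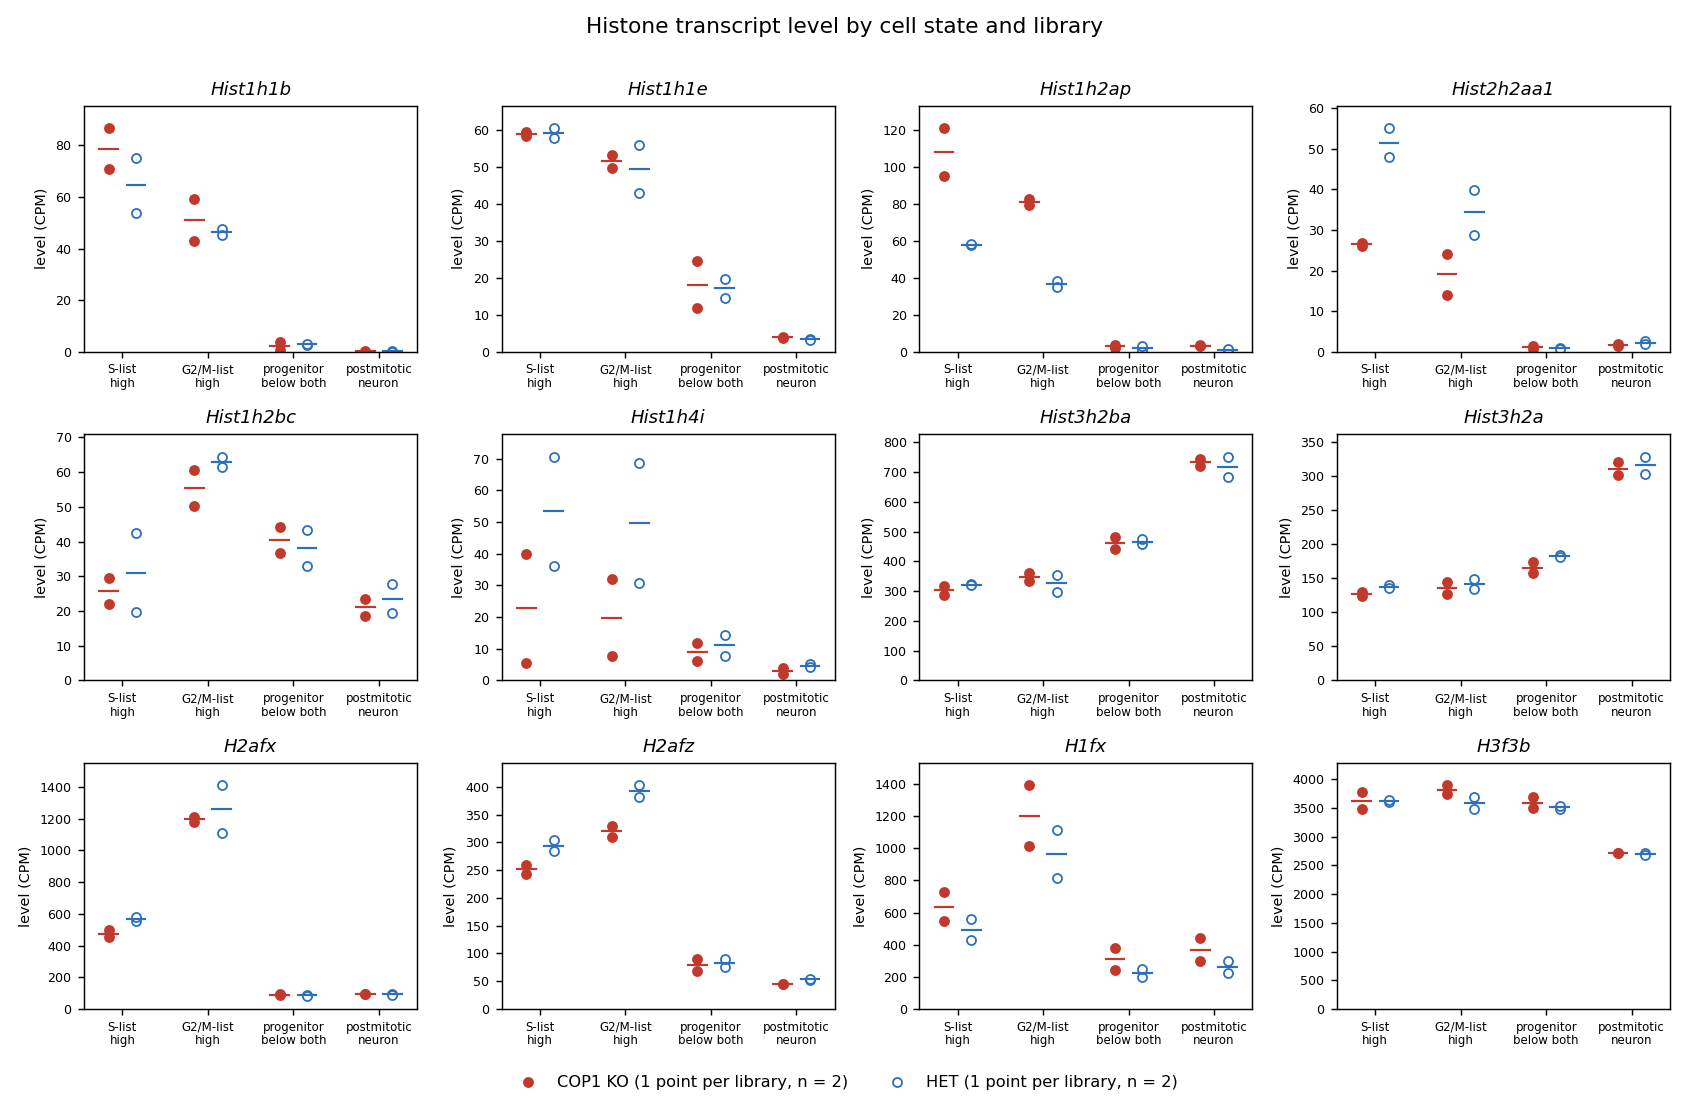
CPM of 12 histone genes in each library (filled, COP1 KO, left; open, HET, right) in 4 cell states, with a line at the mean. Hist1h1b is near 0 outside the cycling states, Hist3h2ba and Hist3h2a are highest in neurons in every library, H2afx is highest in G2/M-list-high cells, and H3f3b is at 2688 CPM or more throughout.

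The Hist3 genes ran the other way. Hist3h2ba, which encodes an H2B, was at 288, 318, 324 and 320 CPM in S-list-high cells of COP1 KO 1 and 2 and HET 1 and 2, against 722, 744, 684 and 752 CPM in their neurons. Hist3h2a, an H2A gene, was at 130, 124, 140 and 136 CPM, against 302, 321, 303 and 329 CPM. The states did not overlap in any library, and both genes were lower in S-list-high cells, by log2 −1.35 (SE 0.0426, edgeR adjusted p = 2.02e-13) and −1.38 (SE 0.0487, adjusted p = 7.42e-13). The pseudogene Hist3h2bb-ps followed with −1.61, so 3 of 3 were lower; its 6.17 CPM in neurons against 2.17 in S-list-high cells shares sequence with Hist3h2ba. In G2/M-list-high cells the 3 differed from neurons by −1.16 for Hist3h2ba, −1.23 for Hist3h2a and −1.24 for Hist3h2bb-ps.

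Progenitor-like cells below both cut-offs were compared with neurons to separate cell class from cycle state, with the neurons as numerator. Here 63.7% of 14103 genes were called, 32.6% higher and 31.1% lower in neurons. Hist3h2a averaged 314 ± 13.6 CPM in neurons, against 174 ± 12.2 in these progenitors (log2 1.02, SE 0.0576), and Hist3h2ba 726 ± 30.5 against 465 ± 18.6 (log2 0.81, SE 0.0501); Hist3h2bb-ps differed by 0.83. Of the 19 other replication-linked genes tested, 0 were higher and 4 lower in neurons: Hist1h1e (−2.06, SE 0.233), Hist1h4i (−1.21), Hist2h2be (−0.87) and Hist1h2bc (−0.66). Hist1h2ap was at the same low level in both (2.21 CPM in neurons, 2.47 in progenitors, log2 −0.00, adjusted p = 0.999). Without HET 1 there were 6 lower and without HET 2 there were 3, and Hist3h2bb-ps kept its call only without HET 1. The share of all genes called in those 2 fits is not given here.

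Across cell classes the Hist3 sum was above 1000 CPM in 3 neuron-like classes. It averaged 1250 CPM in cortical-interneuron-like, 1088 in striatal-projection-neuron-like and 1043 in excitatory-neuron-like cells. Ganglionic-eminence-progenitor-like cells had 683 CPM, Cajal-Retzius-like cells 649, the 22 erythroid-like cells 614 and intermediate-progenitor-like cells 568, so Cajal-Retzius-like neurons lay no higher than these progenitors. Radial-glia-like cells had 287 CPM, oligodendrocyte-precursor-like cells 266 and endothelial-like cells 69.6. The sum over all replication-linked genes, Hist3 included, therefore lay at similar levels, 971 and 1070 CPM in COP1 KO and 1133 and 1037 in HET S-list-high cells, against 1136 and 1171 in COP1 KO and 1104 and 1181 in HET neurons.

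**Figure D3:**
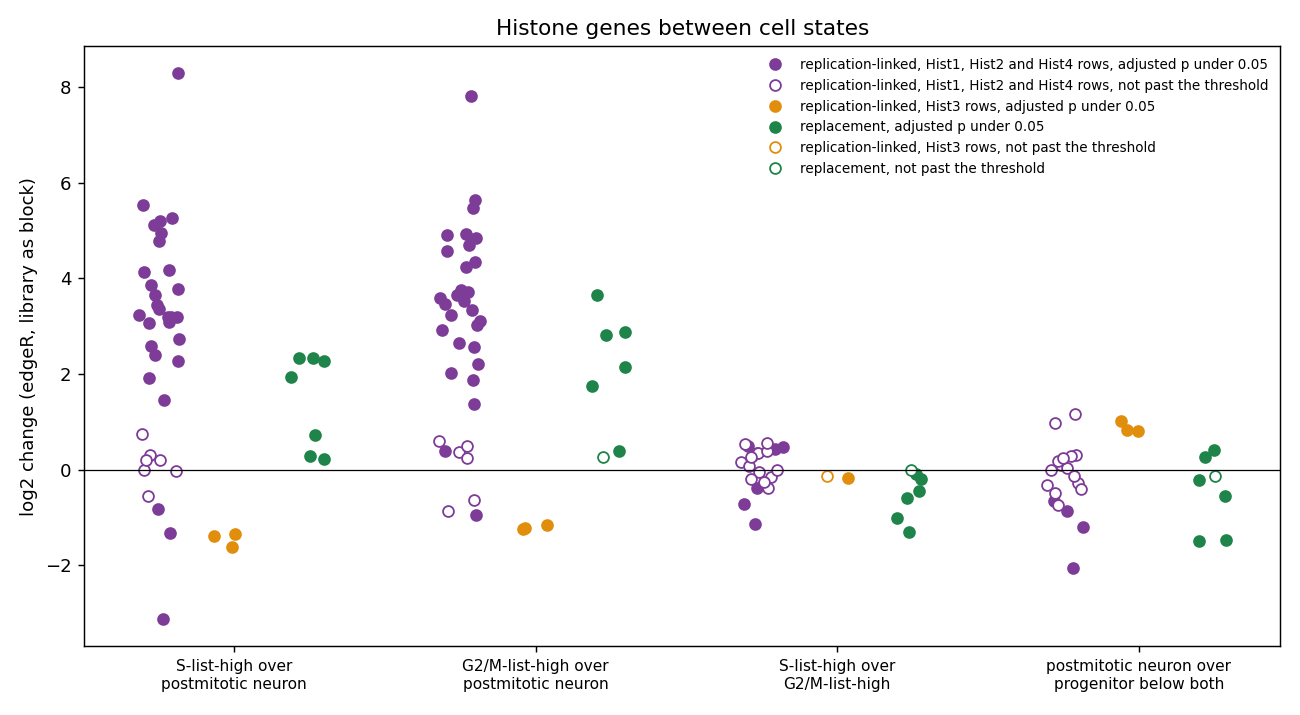
Log2 fold change of each tested histone gene in 4 contrasts between cell states, from edgeR fits with the library as a block; filled points passed an adjusted p of 0.05. The Hist3 genes lie on the other side of 0 from most other replication-linked genes in both contrasts of cycling cells with neurons.

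Every replacement gene was higher in S-list-high cells than in neurons, with a median log2 fold change of 1.93, but their sizes fell into separate ranges. H2afx, whose product is phosphorylated at DNA breaks, was at 519 ± 57.1 CPM in S-list-high cells, against 93.5 ± 3.84 in neurons (log2 2.33, SE 0.0558). H2afz, which encodes H2A.Z.1, was at 273 ± 26.9 against 49.1 ± 5.08 CPM (log2 2.34, SE 0.0459). H2afv, which encodes H2A.Z.2, was at 1493 ± 29.3 against 281 ± 7.31 CPM (log2 2.28, SE 0.0342). H1f0, a linker histone known to accumulate in differentiated cells, was at 935 ± 46.3 against 224 ± 5.47 CPM (log2 1.93, SE 0.0418). H1fx, the linker histone H1.10, had a smaller step, at 565 ± 123 CPM in S-list-high cells against 316 ± 91.4 CPM in neurons (log2 0.72).

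The H3.3 genes changed least. H3f3b was at 3479 and 3773 CPM in COP1 KO and 3610 and 3635 CPM in HET S-list-high cells, against 2716 and 2723 CPM in COP1 KO and 2709 and 2688 CPM in HET neurons (log2 0.28). H3f3a averaged 31.5 ± 9.11 CPM against 24.2 ± 5.33 (log2 0.23, adjusted p = 0.0418), and its libraries overlapped; the call was lost without COP1 KO 2 (0.0646), HET 1 (0.242) or HET 2 (0.0823), with DESeq2 (0.244) and with no low-count filter (0.360). Among the 6 replacement genes higher in G2/M-list-high cells than in neurons, H2afx led with 1228 ± 128 CPM (log2 3.66, SE 0.0468), and H3f3a missed the threshold (0.26, adjusted p = 0.0547). Against other progenitors, neurons had 2 replacement genes higher, H1fx (0.42) and H2afx (0.26), and 4 lower, of which H1f0 fell by 1.49 on the log2 scale and H2afz by 0.55.

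S-list-high and G2/M-list-high cells were then set against each other; 25.7% of 11342 genes were called, 11.9% higher and 13.8% lower in S-list-high cells. Of 21 replication-linked genes outside Hist3, 4 were higher: Hist1h1b (log2 0.49, SE 0.107), Hist2h2aa1 (0.48), Hist1h2ap (0.43, SE 0.0888) and Hist1h2ae (0.36). Another 3 were lower: Hist1h2bc (−1.14, SE 0.125), Hist2h2be (−0.72) and Hist1h1c (−0.38). Hist3h2ba was lower by 0.18, a call lost without COP1 KO 1 (adjusted p = 0.206) or HET 2 (0.0615) and with DESeq2 (0.233). The Hist1h1b call was lost without COP1 KO 1 (0.0588) and with DESeq2 (0.0706), and that of Hist2h2aa1 without COP1 KO 2 (0.0562) or HET 2 (0.0722) and with DESeq2 (0.211). Of the replacement genes 6 of 7 were lower in S-list-high cells, H2afx by far the most (log2 −1.31, SE 0.0447, edgeR adjusted p = 3.36e-25), then H1fx (−1.0), H2afv (−0.58), H2afz (−0.44), H1f0 (−0.19) and H3f3b (−0.09). At a 95th-percentile cut-off H1f0 (0.083) and H3f3b (0.025) turned direction, and the H3f3b call was also lost without COP1 KO 1 (0.0634), without COP1 KO 2 (0.104) and with DESeq2 (0.124). With DESeq2, whose share of all genes called is not given here, 1 replication-linked gene was called higher and 1 lower.

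A finer reading took cells of the radial-glia-like, intermediate-progenitor-like, ganglionic-eminence-progenitor-like and oligodendrocyte-precursor-like classes. They were binned by each list score, as multiples of its cut-off, with no neuron-like or unnamed cells. From under 0.5 to 3 times and above on the S list, replication-linked genes outside Hist3 were at 174, 202, 281, 497, 563 and 843 CPM. Hist3 genes ran at 641, 554, 421, 407, 410 and 327 CPM in the same bins. H2afx peaked in the middle, at 112, 291, 755, 1213, 1082 and 815 CPM. On the G2/M list the course of the first group was 141, 189, 524, 951, 1071 and 748 CPM, whereas H2afx climbed throughout, at 88.5, 118, 334, 613, 960 and 1465 CPM, and H1fx likewise, at 235, 330, 483, 713, 908 and 1217 CPM. Every library and bin held at least 24 cells, and the bins of the 2 lists share cells.

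**Figure D4:**
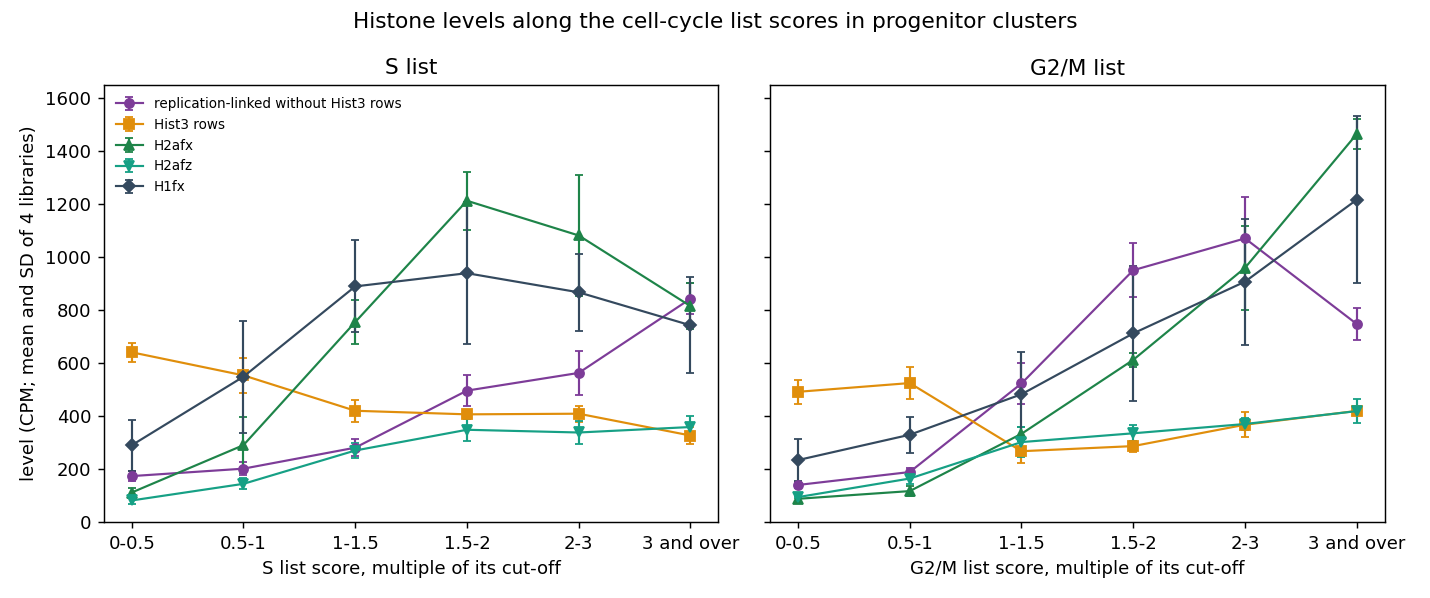
Mean CPM with the SD of 4 libraries, in cells of the progenitor-like classes, against the S-list score (left) and the G2/M-list score (right), in bins of multiples of the cut-off. Replication-linked genes without Hist3 climb along the S list to 843 CPM, and H2afx peaks at 1213 CPM in the 1.5 to 2 bin of the S list but in the last bin of the G2/M list (1465 CPM).

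The share of cells with a count was taken at a fixed depth. With each cell thinned to 2000 counts, 48.1% ± 3.03 of S-list-high and 50.02% ± 2.23 of G2/M-list-high cells had at least 1 count of a replication-linked gene outside Hist3, against 18.3% ± 0.779 of neurons; 26.3% of other progenitors did. The SD ranges of the 2 cycling states overlapped here. Those of their summed CPM, 606 ± 51.5 and 548 ± 61.3, overlapped too, although within each library the sum was higher in S-list-high cells. For Hist1h1b the shares were 10.4% and 8.04%, with 0.333% of other progenitors and 0.0257% of neurons. H2afx was seen in 41.6% and 66.8%, against 15.4% of other progenitors and 17% of neurons. Hist3h2ba was seen in 42.5% and 46.6%, against 55.8% and 73.8%. Without thinning the first shares were 64.1% and 76.7%, against 43.1% of other progenitors and 38.6% of neurons. The thinning left out 23 S-list-high, 6 G2/M-list-high, 13 progenitor-like and 96 neuron-like cells with fewer counts, and free RNA in droplets can give counts in cells that do not express a gene.

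Genes that act on histone messages and proteins were read against the same background, 36.2% of all genes higher and 37.4% lower. Of 10 tested genes for histone mRNA processing, 6 were higher and 2 lower in S-list-high cells than in neurons. Slbp, the stem-loop binding protein, was higher by log2 2.67, Npat, the activator of histone gene transcription, by 1.76, and Casp8ap2 by 1.52, while the U7 snRNP proteins Lsm10 and Lsm11 were lower (−0.51 and −0.52). Of 16 chaperone genes 13 were higher and 1, Atrx, lower (−0.17). Asf1b led (6.51), followed by the chromatin assembly factor subunits Chaf1a (3.73) and Chaf1b (2.59) and by Nasp (2.0), whereas the H3.3 chaperones Hira (0.04, adjusted p = 0.691) and Daxx (−0.08, adjusted p = 0.323) did not pass. Slbp was also higher in S-list-high than in G2/M-list-high cells (1.77), and Cenpa, the centromeric H3 variant, was lower there (−3.24). Among the other variants, Cenpa (4.52) and H2afy, a macroH2A gene (0.83), were higher in S-list-high cells than in neurons.

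The lineages within S-list-high cells differed in both kinds of histone RNA. The replacement sum was 9855 CPM in intermediate-progenitor-like and 9850 in ganglionic-eminence-progenitor-like cells, with 6119 in radial-glia-like and 5154 in oligodendrocyte-precursor-like cells. H3f3b carried most of that, at 4685 ± 209, 4715 ± 280, 2692 ± 142 and 2452 ± 288 CPM in the same order, and the first 2 lineages did not overlap the other 2. Replication-linked genes without Hist3 were at 823, 740, 604 and 477 CPM. In G2/M-list-high cells the replacement sum kept that order, at 12370, 12340, 8845 and 6928 CPM. These lineage levels were not tested, and the oligodendrocyte-precursor-like S-list-high values rest on 61 and 57 COP1 KO cells and on only 10 and 15 HET cells.

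By genotype the design holds 2 mice against 2, so an exact permutation test of a single value cannot go below 0.333, and edgeR p-values rest on the spread between these libraries. Cycling cells were a larger share of COP1 KO libraries: 11.8% and 10.2% were S-list-high, against 8.60% and 9.53% in HET libraries, and 6.47% and 6.51% were G2/M-list-high, against 4.53% and 5.33%. Within S-list-high cells the S list itself was at 6832 and 6480 CPM, against 7062 and 7032, and within G2/M-list-high cells the G2/M list was at 21570 and 22810 CPM, against 25560 and 24850. The median mitochondrial share of counts was 1.27% and 1.24% against 1.14% and 1.13%. A list of 6 erythroid genes summed to 236 and 174 CPM in S-list-high cells, against 5.92 and 4.20 CPM, and to 97.1 and 8.24 CPM in G2/M-list-high cells, against 5.60 and 4.30. The part of these values in the genotype results was not tested.

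Summed histone RNA lay close in S-list-high cells and neurons. Replication-linked genes without Hist3 summed to 552 and 626 CPM in COP1 KO S-list-high cells, against 668 and 578 CPM in HET, and to 108 and 98.7 CPM in COP1 KO neurons, against 110 and 94.2 CPM in HET. The replacement sum was 7306 and 7478 CPM, against 7342 and 7641, in S-list-high cells, and 3819 and 3690 CPM, against 3609 and 3665, in neurons. The replacement sum overlapped in S-list-high cells but not in neurons. Nor did it overlap in oligodendrocyte-precursor-like cells, at 5885 and 6103 CPM against 4219 and 4383 (log2 0.48), or in striatal-projection-neuron-like cells, at 4695 and 4796 CPM against 4265 and 4211. COP1 KO also lay higher over whole libraries (4788 and 4599 against 4342 and 4489). The same held in intermediate-progenitor-like (9594 and 9152 against 8998 and 8681) and ganglionic-eminence-progenitor-like cells (10350 and 10270 against 9371 and 10240). In fibroblast-like cells COP1 KO lay lower (3059 and 2877 against 3104 and 3655). The replacement sum overlapped in G2/M-list-high cells, other progenitors, and radial-glia-like, excitatory-neuron-like, cortical-interneuron-like and Cajal-Retzius-like cells. It also overlapped in endothelial-like, erythroid-like, microglia-like and mural-like cells. The exact permutation p over the summed levels ran from 0.333 to 1. Full separation gives 0.333, so it arises often by arrangement alone, and several of these groups share cells. Over whole libraries edgeR called 2 of 16977 genes (0.0118%) and 0 of the 58 histone genes tested. An unadjusted p under 0.05 was found for 9 of them and for 1786 of all 16977 genes, and DESeq2 called 1 histone gene. Leaving out a COP1 KO library brought histone genes past the threshold, in fits whose share of all genes called is not given here. The median log2 fold change of the replication-linked genes without Hist3 was 0.07, beside 0.00 for all genes. In whole libraries fewer cells of a kind and less RNA per cell cannot be told apart.

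One clustered gene, Hist1h2ap, stood higher in COP1 KO cells in cycle. In S-list-high cells it was at 95.4 and 121 CPM in COP1 KO libraries (274 and 324 counts), against 57.9 and 58.4 CPM in HET libraries (127 and 139 counts). In G2/M-list-high cells it was at 79.6 and 82.9 CPM (155 and 171 counts), against 38.5 and 35 CPM (55 and 57 counts). Both COP1 KO values lay above both HET values in each state. The log2 fold change was 0.94 in S-list-high cells (SE 0.131, edgeR adjusted p = 0.0089), where 1.58% of 11880 genes were called, and 1.19 in G2/M-list-high cells (SE 0.159, adjusted p = 0.0057), where 1.59% of 11032 were. The call held under each of 9 other settings in both states, with log2 fold changes between 0.785 and 1.080 in the S-list-high cells. Limited to cells of the 4 progenitor classes, which leaves out unnamed and neuron-like clusters, the values were 0.95 (adjusted p = 0.0107) and 1.22 (adjusted p = 0.00223).

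The 3 progenitor classes with the most cells showed the same direction. They hold many of the S-list-high and G2/M-list-high cells already compared, so they are not independent of those results. The share of cycling cells within a class was not held fixed. Radial-glia-like cells had 73.4 and 79.0 CPM in COP1 KO, against 47.4 and 46.4 in HET (0.74, SE 0.135, adjusted p = 0.0147; 3.14% of 11613 genes called). Intermediate-progenitor-like cells had 81.2 and 72.7 CPM against 33.7 and 24.9 (1.44, SE 0.22, adjusted p = 0.0129; 0.482% of 9745). Ganglionic-eminence-progenitor-like cells had 88.1 and 111 CPM against 43.8 and 45.8 (1.19, SE 0.178, adjusted p = 0.0498; 0.102% of 9773). No other histone gene was called in these 3 classes. The radial glia call was lost without HET 1 (0.0738) or HET 2 (0.0933) and with DESeq2 (0.199), that of ganglionic eminence progenitors without HET 1 (0.129) or HET 2 (0.055) and with RLE factors (0.0556; DESeq2 gave it no adjusted p), and that of intermediate progenitors with DESeq2 (0.0867). Leaving out COP1 KO 1 or COP1 KO 2 brought further histone genes past the threshold in radial-glia-like cells. In intermediate-progenitor-like cells leaving out COP1 KO 2, HET 1 or HET 2 did so. The share of all genes called in those fits is not given here.

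Oligodendrocyte-precursor-like cells had 68.4 and 85.04 CPM of Hist1h2ap, against 35.5 and 27.6, but did not pass (1.24, SE 0.346, adjusted p = 0.307; 0.125% of 8018 genes called); 0 of 17 histone genes were called there by edgeR and 0 by DESeq2, and 5 had an unadjusted p under 0.05, as had 764 of all 8018. Without COP1 KO 2, HET 1 or HET 2, H1fx passed there, in fits whose share of all genes called is not given here. This class held 113 and 141 COP1 KO cells, against 35 and 35 HET cells. Neurons had 3.44 and 2.93 CPM, against 1.16 and 1.29, from 55 and 49 against 20 and 21 counts (1.40, SE 0.224, adjusted p = 0.27), with 0 of 36 histone genes and 0% of 14870 genes called by edgeR (DESeq2 also called 0 histone genes; the unadjusted p was under 0.05 for 5, and for 1230 of all 14870 genes). Without COP1 KO 2 it passed in neurons (0.018). Cortical-interneuron-like cells, at 3.97 and 0.895 CPM against 1.48 and 3.77, overlapped between genotypes. The difference between the genotype effects in dividing cells and in neurons was −0.38 (SE 0.277, edgeR adjusted p = 0.671; 2.26% of 15280 genes called). None of the 58 histone genes passed edgeR's test of that difference, with 5 under an unadjusted p of 0.05, beside 1754 of all 15280 genes. Leaving out COP1 KO 2 or HET 2 brought other histone genes past it, but not Hist1h2ap. Summed over each whole library, Hist1h2ap was at 19.4 and 20.1 CPM against 7.75 and 8.43 (1.31, SE 0.10, adjusted p = 0.0955), which passed without COP1 KO 1 (0.0109), without COP1 KO 2 (0.00204) and with DESeq2 (2.88e-10).

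Hist2h2aa1, 1 of 4 H2A genes of the Hist2 cluster, differed in the opposite direction. In S-list-high cells it was at 26.8 and 26.2 CPM in COP1 KO libraries (77 and 70 counts), against 55.1 and 47.9 CPM in HET libraries (121 and 114 counts), a log2 fold change of −0.90 (SE 0.159, edgeR adjusted p = 0.025). The call was lost without HET 1 (0.0806), with DESeq2 (0.191) and at a 95th-percentile cut-off (0.0521). In G2/M-list-high cells the values were 24.1 and 14.1 CPM, against 39.9 and 28.9 (−0.80, adjusted p = 0.256). Other H2A genes that were not called in S-list-high cells also leaned low, Hist1h2aa by −1.40 (adjusted p = 0.0837) and Hist2h2ab by −0.73 (0.113), while Hist1h2ae leaned high by 0.50 (0.159). In all, 33 histone genes were tested in S-list-high cells, with 1 higher, beside 1.09% of all genes, and 1 lower, beside 0.497%. The count of called genes moved when 1 library was left out. The share of all genes called in those fits is not given here, so that count is no result about histone genes. In G2/M-list-high cells 1 of 28 was called, beside 1.59% of all genes.

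Summed over the 18 Hist1 and Hist2 H2A genes, the genotypes overlapped in both cycling states and not in every class. Hist3h2a and the replacement H2A genes were left out of this sum, and the pseudogene Hist1h2al was in it. The 18 genes together were at 291 and 327 CPM in COP1 KO S-list-high cells, against 313 and 285 CPM in HET. In G2/M-list-high cells they were at 243 and 230 CPM, against 265 and 216. The sum also overlapped in neurons, excitatory-neuron-like, radial-glia-like and intermediate-progenitor-like cells. It did not in ganglionic-eminence-progenitor-like cells (289 and 308 CPM against 257 and 252), oligodendrocyte-precursor-like cells (179 and 215 against 142 and 114), other progenitors (26.7 and 34.5 against 24.3 and 17.7) or whole libraries (67.7 and 67.1 against 57.6 and 52.9). Without Hist1h2ap the other 17 were at 195 and 206 CPM, against 255 and 227, in S-list-high cells. In G2/M-list-high cells they were at 163 and 147 CPM, against 226 and 181. Every COP1 KO value lay below every HET value in both states (exact permutation p = 0.333, the lowest possible for 2 against 2). Hist1h2ap was set apart for its higher COP1 KO values in these same sums, so a lower remainder is partly built in. The 4 Hist2 H2A genes were at 48.7 and 49.4 CPM against 89.7 and 84.5 in S-list-high cells. The 14 Hist1 H2A genes were at 242 and 278 CPM against 223 and 200. Hist2h2aa1 is in the first sum and Hist1h2ap in the second. Both were called by genotype in these cells, so the opposite directions of the 2 sums are partly built in. Since 93.1% of the Hist1h2ap windows also occur in Hist1h2ao, the split of reads among the Hist1 genes is less certain than their sum. Of the Hist2h2aa1 windows 89.4% also occur in the overlapping Gm20634, which is in none of these sums. Summing does not remove that uncertainty. Hist1h2ao itself was at 8.36 and 10.5 CPM, against 15.5 and 11.3, in S-list-high cells.

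**Figure D5:**
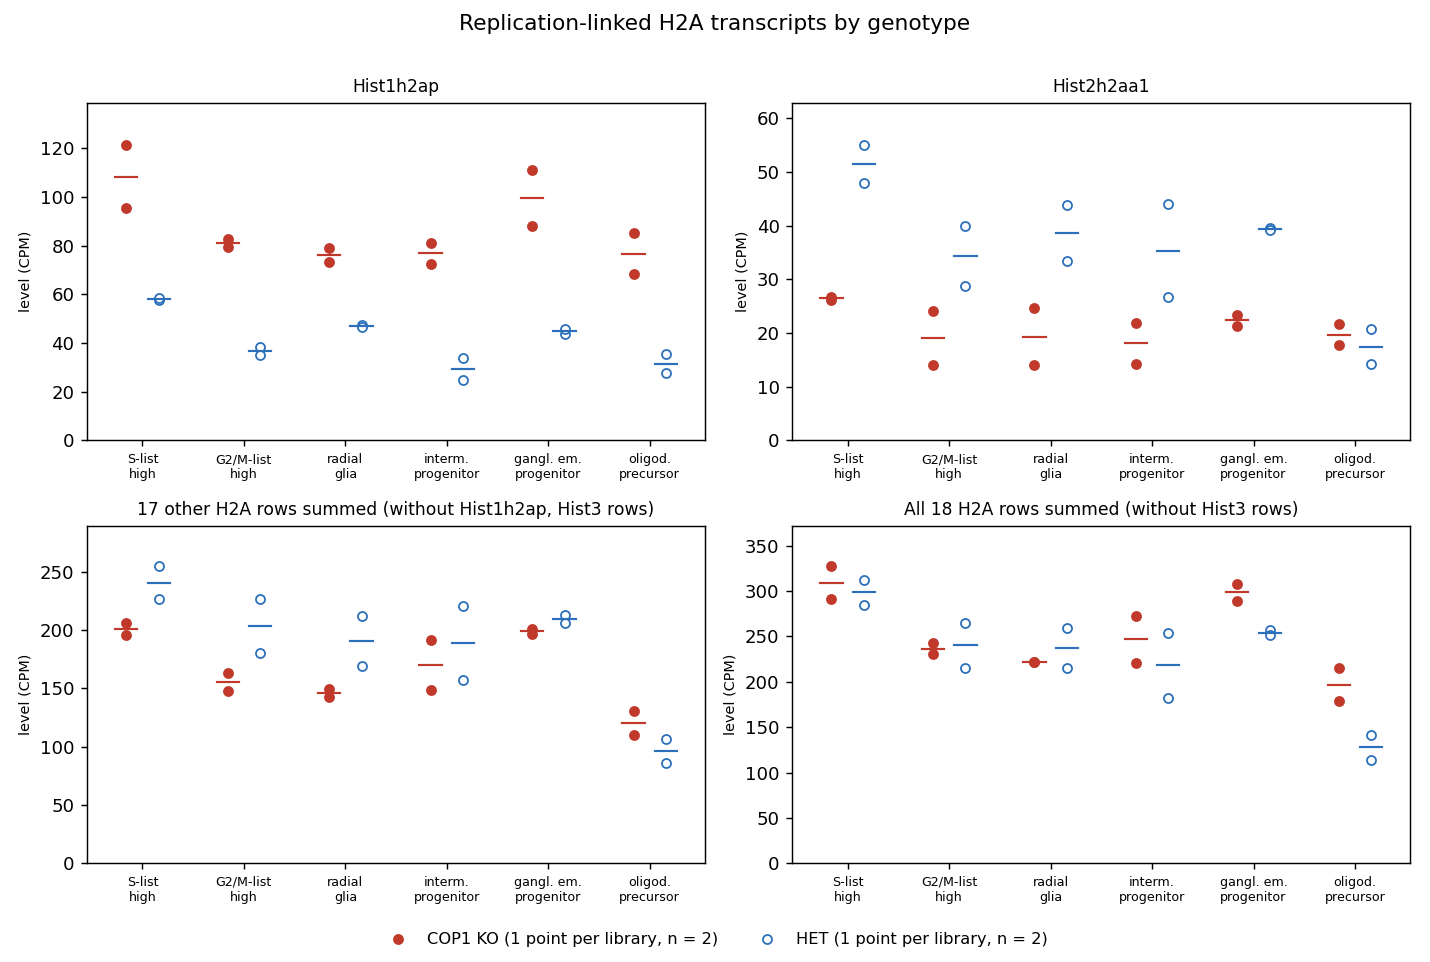
CPM per library in 6 cell groups (filled for COP1 KO, left, and open for HET, right) of Hist1h2ap, Hist2h2aa1, the 17 other H2A genes summed and the 18 H2A genes summed. The sums hold Hist1 and Hist2 genes only, and the 17 leave out Hist1h2ap, which was set apart for its COP1 KO values. Hist1h2ap is higher in both COP1 KO libraries in each of the 6 groups, the other 17 are lower in both cycling states, and the sum of 18 overlaps there.

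The other families were summed in S-list-high cells in the same way, without Hist3 or replacement genes. The 6 H1 genes were at 172 and 165 CPM in COP1 KO, against 175 and 160 in HET, and the 13 H4 genes at 27.9 and 67.4 CPM against 97.5 and 64.3. The 17 H2B genes, with Hist3h2ba left out, were at 50.1 and 53.9 CPM against 65.6 and 55.5. The 12 H3 genes were at 11.1 and 12.4 CPM against 17.8 and 13.9. H1 and H4 overlapped between genotypes. H2B and H3 did not, each with an exact permutation p of 0.333, the lowest that 2 against 2 libraries can give. H4 was pulled by Hist1h4i, which was lowest in COP1 KO 1 in each of the 4 states and in every class compared except the cortical-interneuron-like cells: in G2/M-list-high cells it was at 7.70 CPM in COP1 KO 1, with 32.0 in COP1 KO 2, against 68.6 and 30.7 in HET 1 and HET 2 (−1.20 in S-list-high cells, adjusted p = 0.414).

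H1fx differed between the libraries of 1 genotype, and in the same order in each state and class compared: COP1 KO 1 was highest and HET 1 lowest. Over whole libraries it was at 528 and 361 CPM in COP1 KO, against 268 and 362 in HET, with COP1 KO 2 and HET 2 level (0.53, adjusted p = 0.493). In oligodendrocyte-precursor-like cells it was at 710 and 464 CPM, against 220 and 355, and in intermediate-progenitor-like cells at 922 and 643 CPM, against 519 and 524 (0.64, adjusted p = 0.106). With all 4 libraries edgeR as reported called it in no state or class; with no low-count filter it passed in oligodendrocyte-precursor-like (7.44e-05) and striatal-projection-neuron-like cells (1.22e-12) among others, and with DESeq2 in striatal-projection-neuron-like cells (0.0403). Without COP1 KO 2, with COP1 KO 1 as the only knockout library, it passed over whole libraries (0.79, adjusted p = 0.0233), in S-list-high cells (1.43e-10) and in neurons (0.00913). The remaining replacement genes were not called by genotype in any state or class in the edgeR fits as reported; under alternatives single ones passed, such as H3f3a in neurons and H3f3b in radial-glia-like cells without COP1 KO 2, and H2afv in oligodendrocyte-precursor-like cells with no low-count filter. In S-list-high cells H2afx was at 451 and 497 CPM against 553 and 578, and H2afz at 260 and 243 CPM against 284 and 304.

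In the remaining comparisons by genotype edgeR called 0 histone genes: 13 tested in progenitor-like cells below both cut-offs (2 with an unadjusted p under 0.05, as had 1044 of all 10557; 0.142% of all genes called), 34 in excitatory-neuron-like (5, beside 1330 of 14272; 0%), 8 in Cajal-Retzius-like (2, beside 457 of 7453; 0.0134%), 12 in cortical-interneuron-like (1, beside 539 of 9323; 0.0107%) and 13 in striatal-projection-neuron-like cells (5, beside 673 of 10301; 0.00971%). DESeq2 called 1 in the last of these and 0 in the others. Without COP1 KO 2 histone genes passed in each of these groups, with H1fx the only one in all but the excitatory-neuron-like cells. H1fx also passed in striatal-projection-neuron-like cells without COP1 KO 1 and, there and in cortical-interneuron-like cells, without HET 2. The share of all genes called in those fits is not given here. None of the processing, chaperone and other-variant genes was called by genotype in any state or class.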

How the data were processed

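Single-cell RNA counts from the cortex of 2 COP1 KO and 2 HET mice were analysed. The authors deposited counts of molecules or reads per gene and barcode, 1 table per library; alignment was with GSNAP (version 2013-10-10) to GRCm38/mm10, per the submitters' processing notes, and the counter, its annotation, its use of strand and how it treated reads that match several genes are not given. Rows named only by a number (3065 of the deposited rows, 1.69% of counts) were not left out as such, and took part in the clustering. Copies of rows identical in every barcode (367 copies, 1.34% of counts) were removed. Cells with fewer than 500 detected genes (222) or over 10% mitochondrial counts (1) were dropped, and 231 barcodes (1.22%) with a scrublet score of at least 0.25 were removed as doublets, because the automatic threshold marked only 12.

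Cells were clustered with scanpy 1.11.5 (2000 variable genes, 30 components, 15 neighbours, Leiden resolution 1) without histone rows. A cluster was named by its marker score (at least 0.5, leading by 0.3, with 3 markers in 10% of cells); 2 more were left unnamed because their leading genes went against the name. Counts were summed per library and state or class and tested with edgeR 4.0.16 in R 4.3.3 (quasi-likelihood, TMM, filterByExpr, Benjamini-Hochberg over all tested genes, threshold 0.05), with DESeq2 1.42.0 as an alternative. SE is the absolute log2 fold change over the square root of F. On simulated counts with log2 changes of 1 and 2, the fits recovered 69.8% and 94.9% (genotype, S-list-high), 70.7% and 93.9% (genotype, whole libraries), 81.8% and 94.8% (S-list-high over neurons) and 60.0% and 85.7% (difference between genotype effects).

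Stem-loops came from GENCODE transcripts and promoters from RefSeq, matched by symbol (62 replication-linked and 6 replacement genes). Members and lists were chosen with earlier results of these data known. Named genes are the 7 replacement genes, the 2 replication-linked genes of each family with the highest S-list-high level, the 2 highest in neurons and every gene called by genotype; the other histone genes were named after their values were seen. Replicate numbers are accession order and only name libraries. Nothing in the labels says that the animals were separate litters. Counts of 0 and low counts are limited by sampling, and intervals from 4 libraries rest on few degrees of freedom.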

Additional observations from a re-analysis of the deposited data

How the results depend on the processing

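No pairing of animals between genotypes was possible because the labels carry no replicate numbers. State contrasts were paired by library. With 2 mice a group, lost calls say little about absence, and clustered histone genes outside Hist3 had few counts, so genes below the filter were not tested. For values of single named genes, 630 alternatives gave the same call, 38 added one, 26 lost one and 3 reversed: Hist2h2aa1 by genotype in oligodendrocyte-precursor-like cells (log2 −0.011 without HET replicate 1 and 0.408 without HET replicate 2), and, at a 95th-percentile cut-off, H1f0 (0.083) and H3f3b (0.025) in S-list-high over G2/M-list-high cells. The causes were not tested. RLE and TMM scaling differed by at most 0.018 (log2) for the median gene.

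Counts of histone genes called by genotype moved as follows. The share of all genes called under each alternative is not given here. The counts therefore do not show whether histone genes moved more than other genes. DESeq2 called 1 over whole libraries, 1 in S-list-high, 1 in striatal-projection-neuron-like and 0 in ganglionic-eminence-progenitor-like (no adjusted p for Hist1h2ap), intermediate-progenitor-like and radial-glia-like cells. With no low-count filter there were 3 in G2/M-list-high, 1 in progenitor-like cells below both cut-offs, 1 each in Cajal-Retzius-like, cortical-interneuron-like and striatal-projection-neuron-like, 2 in ganglionic-eminence-progenitor-like, 3 in intermediate-progenitor-like, 3 in oligodendrocyte-precursor-like and 5 in radial-glia-like cells. RLE factors gave 0 in ganglionic-eminence-progenitor-like cells, and the 95th-percentile cut-off 1 in S-list-high cells. Leaving out 1 library gave ranges of 0 to 6 over whole libraries, 1 to 8 in S-list-high, 1 to 5 in G2/M-list-high, 0 to 1 in other progenitors and 0 to 4 in neurons. By class the ranges were 0 to 5 (radial glia), 1 to 5 (intermediate progenitor), 0 to 1 (ganglionic eminence), 0 to 2 (oligodendrocyte precursor), 0 to 4 (excitatory neuron) and 0 to 1 (Cajal-Retzius, cortical interneuron and striatal), and 0 to 2 for the difference between dividing cells and neurons.

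Between states, replication-linked genes higher in S-list-high cells than in neurons numbered 41 with no filter and 40 with DESeq2; those lower in G2/M-list-high cells than in neurons numbered 2 at the 95th-percentile cut-off; those lower in neurons than in other progenitors numbered 7 with no filter. S-list-high over G2/M-list-high gave 1 higher and 1 lower with DESeq2, and 9 higher at the 95th-percentile cut-off. Leaving out 1 library gave 2 to 4 higher and 2 to 3 lower. For these counts too the share of all genes called is not given here.

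Summed levels (log2 of COP1 KO over HET) for replication-linked genes without Hist3 were 0.133 over whole libraries, −0.151 in G2/M-list-high and 0.152 in other progenitors, and −0.136 in G2/M-list-high cells without Hist3h2ba; for all replication-linked genes, Hist3 included, leaving out 1 library gave −0.115 to −0.007 in G2/M-list-high cells and −0.075 to 0.046 in other progenitors. Replacement sums without H3f3b were 0.176 over whole libraries, −0.028 in G2/M-list-high cells and 0.140 in neurons; with TMM-scaled sizes they were 0.031 in S-list-high, 0.058 in G2/M-list-high cells and 0.076 in neurons. Differences in the share of cells with a replication-linked count (percentage points) were −2.21 when thinned to 1000 and −1.70 without thinning in G2/M-list-high cells; without Hist3 they were −5.19 in G2/M-list-high, −0.683 in other progenitors and −1.60 in neurons without thinning, and 4.47 in other progenitors thinned to 1000.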
